A study of Mesocricetus auratus with 8 samples.

Results

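The adenylyl cyclase family was followed in primary satellite cells (SCs) of the Syrian hamster, a hibernating rodent, before and after 24 h in the cold. The family was taken as the 9 genes whose symbol in the deposited table is Adcy1 to Adcy9, out of 17590 genes with values. The genes were chosen by family name with the cold-against-control values of these libraries already known, because Adcy1 is among the genes the study displays as lower after cold. Their cold-against-control differences are therefore given below as a description, and where members past a threshold are counted, the share of all genes past it stands beside them and no p-value of a member is used as support. Values came from 4 control libraries (SCs cultured at 37°C and harvested before cold exposure, 0 h) and 4 cold libraries (the same culture followed by 24 h at 4°C). Libraries were numbered from 1 to 4 in both groups. All libraries carry the label WT. The SCs came from hindlimb muscle of sexually mature males, were purified by preplating and grown in growth medium. It was supplemented with HEPES from 24 h before the cold, and the medium was not changed during the cold. By their labels, control replicates 1 to 4 had spent 3, 4, 5 and 6 days at 37°C, although every control title names day 3. Cold libraries were harvested 24 h later than controls, from older medium and from a refrigerator in place of the incubator. Cold, added time in culture, medium age and the change of chamber cannot be told apart.

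Adenylyl cyclases are membrane enzymes that make cyclic AMP (cAMP) from ATP. Receptors coupled to the stimulatory G protein switch them on, and cAMP then acts through protein kinase A (PKA), the exchange factors Epac, Popeye domain proteins and, in the nucleus, CREB, until phosphodiesterases degrade it. The 9 membrane isoforms share this reaction and differ in what else they respond to. ADCY1, ADCY3 and ADCY8 are stimulated by calcium with calmodulin, ADCY2, ADCY4 and ADCY7 are conditionally stimulated by G protein βγ subunits, ADCY5 and ADCY6 are inhibited by calcium, and ADCY9 responds poorly to the activator forskolin.

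Depth was similar across the libraries, between 16530747 and 18533801 expected read counts. Replicates 1 and 2 differed from replicates 3 and 4 in both groups: the deviations of control and cold libraries from their group means correlated, across genes, at 0.609 to 0.659 for equal numbers, at 0.432 to 0.591 for unequal numbers on the same side of that divide and at −0.609 to −0.553 across it. SC and myoblast markers were all listed with counts (18 of 18 genes, summed level 2870 to 3230 TPM, abundance scaled to transcript length and library total, in control and 2750 to 3100 TPM in cold libraries), including Pax7 at 12.7 ± 2.17 TPM in controls and 13.5 ± 1.70 TPM after cold, and Myod1 at 614 ± 103 and 567 ± 98 TPM (SD, n = 4 each). Of the pairs, 3 of 4 were higher in Pax7 and 4 of 4 lower in Myod1 after cold, with edgeR adjusted p = 0.999 for both, or 0.456 and 0.020 with the replicate block. Fibroblast and mesenchymal markers were present as well (13 genes, 1370 to 1950 TPM in control and 1350 to 1890 TPM in cold), as were smooth muscle and pericyte markers (8 genes, 1340 to 2220 and 1190 to 1510 TPM). Endothelial (2.67 to 4.32 TPM in control and 2.78 to 4.31 TPM in cold), adipocyte (2.31 to 5.28 and 2.44 to 6.66 TPM) and Schwann cell and neuronal markers (13.4 to 19.0 and 9.31 to 15.2 TPM) were low. Of the macrophage and leukocyte markers (40.9 to 97.3 and 44.1 to 105 TPM), Cd68 was the most abundant at 34.1 ± 12.2 TPM in controls and 37.7 ± 14.0 TPM after cold (SD, n = 4 each), whereas Ptprc, Adgre1, Itgam and Aif1 never exceeded 3 counts in a library. The libraries are bulk RNA, in which fewer cells of a type and less RNA per cell cannot be told apart. Marker levels do not count cells, and by immunostaining the paper found nearly all isolated hamster cells positive for Pax7 or MyoD.

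Adcy6, Adcy7 and Adcy9 made up nearly all of the adenylyl cyclase transcripts of these cells. In TPM, which corrects for transcript length and allows levels of different genes to be compared, they summed to 93.2 ± 0.427% of the family in control and 95.2 ± 0.191% in cold libraries (SD, n = 4 each). Adcy6 alone held 48.3 ± 2.39% of the control pool, Adcy7 27.0 ± 2.68% and Adcy9 17.9 ± 0.535% (SD, n = 4 each). Adcy1 came next in the control pool with 3.59 ± 1.10%, and held 1.39 ± 0.238% of the cold pool, where Adcy3 held 1.41 ± 0.148% (SD, n = 4 each). The summed level of all 9 genes averaged 27.9 ± 3.34 TPM in control libraries and 27.9 ± 2.88 TPM after cold (SD, n = 4 each), so the pool as a whole had the same mean. It was 24.6 to 25.8 TPM in replicates 1 and 2 and 30.2 to 31.3 TPM in replicates 3 and 4, a difference between replicate numbers that both groups shared.

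**Figure D1:**
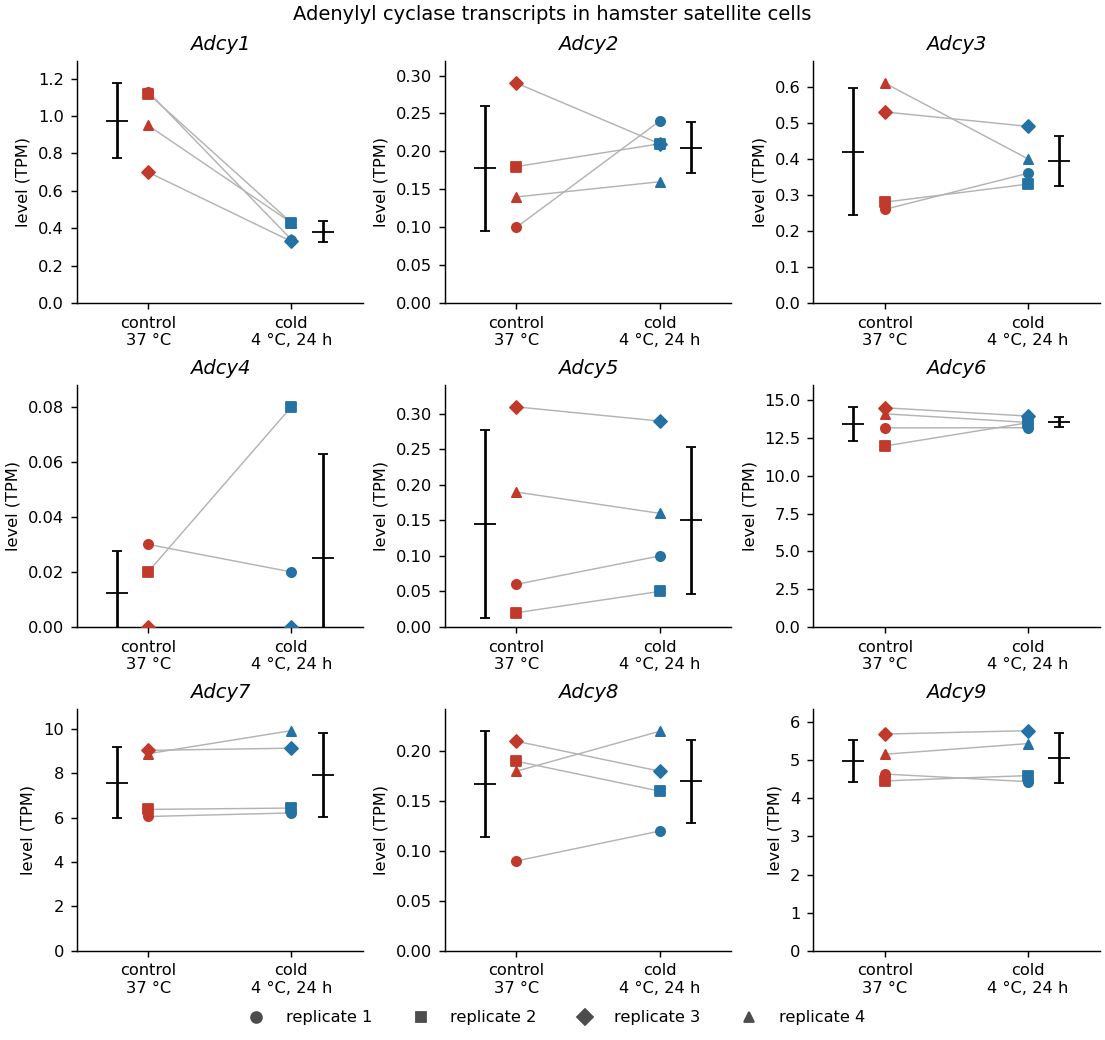
Level in TPM (vertical axes, linear and starting at 0, with a scale of its own for each gene) of the 9 adenylyl cyclase genes in control and cold libraries. Symbols mark the replicate number, grey lines join libraries of the same number, and black bars give the mean ± SD of 4 libraries, with the lower end cut at 0 for Adcy4. Only in the Adcy1 panel do the groups separate, with controls at 0.70 to 1.13 TPM and cold libraries at 0.33 to 0.43 TPM.

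The order of levels in the controls ran Adcy6, Adcy7, Adcy9, Adcy1, Adcy3, Adcy2, Adcy8, Adcy5 and Adcy4. From Adcy6 down to Adcy3, each gene had a range over the 4 control libraries that did not overlap that of the next. Below Adcy3 the ranges of neighbours overlapped. Adcy3 was nevertheless above Adcy2 in 4 of 4 control libraries, by 2.37-fold in the mean, whereas Adcy2, Adcy8 and Adcy5, with means of 0.178, 0.167 and 0.145 TPM, changed places from library to library. After cold the same upper order held in 4 of 4 libraries, except that Adcy1, at a mean of 0.383 TPM, stood beside Adcy3, at 0.395 TPM, with each the higher of the pair in 2 of 4 libraries. By mean level over the 8 libraries, Adcy6 lay above 61.3% of all genes with values, Adcy7 above 52.5% and Adcy9 above 47.1%, whereas Adcy1 lay above 32.4% and Adcy4 above 12.5%.

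**Figure D2:**
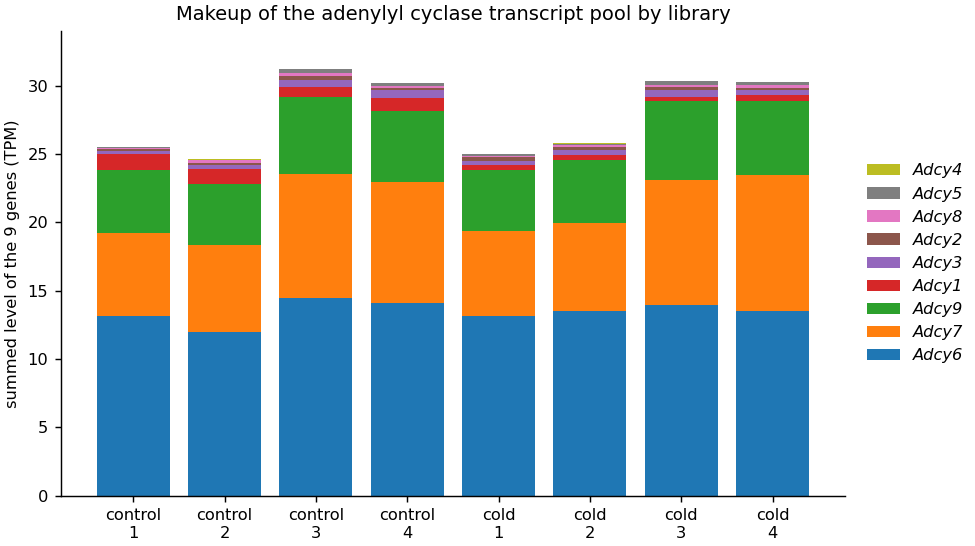
Summed level of the 9 genes (vertical axis, TPM) in each library, divided by gene, with controls 1 to 4 on the left and cold libraries 1 to 4 on the right. Adcy6, Adcy7 and Adcy9 fill at least 92.6% of every bar, the bars of replicates 3 and 4 are taller in both groups, and the red Adcy1 segment is thinner in the cold.

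After cold, Adcy1 was lower and no other member showed a difference of that size. Expected counts were compared with edgeR's quasi-likelihood test over 12506 genes, and a call required a Benjamini-Hochberg adjusted p under 0.05 together with a log2 fold change beyond −1 or 1. Of the 9 members, 7 had enough counts to enter the fit, and Adcy2 and Adcy4 did not. The 7 log2 fold changes had a median of 0.0052, against 0.0071 over all genes tested, and 3 of the 7 were negative. Apart from Adcy1 they lay within 0.10 of 0 in either direction, where 5% of all genes lay below −0.31 and 5% above 0.18. At both thresholds 0 of 7 members were called, where 5 of 12506 genes were called lower (0.04%) and 0 higher (0%), and 1 member, Adcy1, was among the 6.7% of genes with an unadjusted p under 0.05. When edgeR was given the replicate number as a block, 1 of 7 was called, again Adcy1, where 0.808% of genes were called lower and 0.04% higher. DESeq2 also called 1, Adcy1, where it called 68 of 14387 genes lower (0.473%) and 0 higher (0%). Only Adcy1 had groups whose TPM did not overlap (lower in 2.41% and higher in 2.27% of all genes tested). By TPM within pairs of the same number, Adcy1 was lower in 4 of 4 pairs (10.5% of genes) and Adcy7 higher in 4 of 4 (12.8%). Because this contrast is the one on which the family was picked, these counts describe the members and nothing is read from them.

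**Figure D3:**
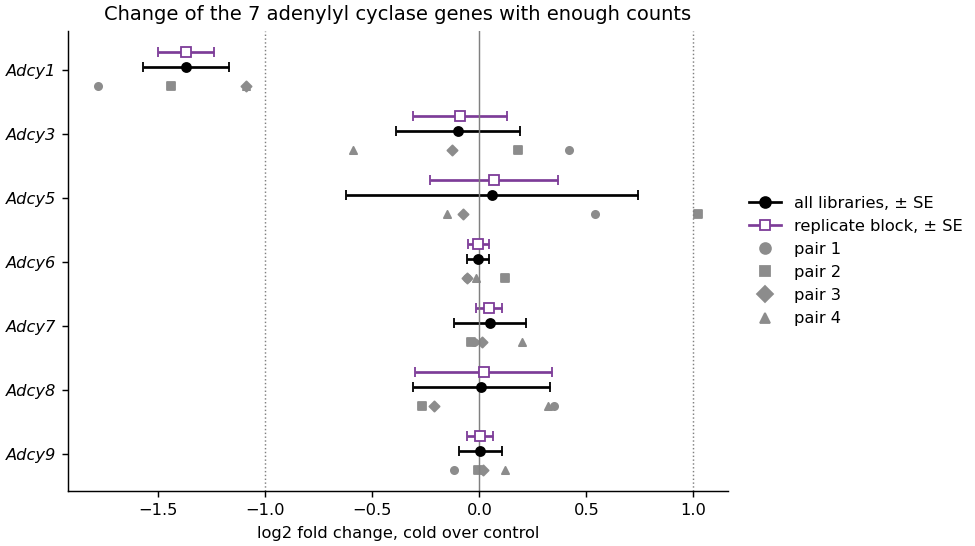
Log2 fold change of cold over control (horizontal axis) for the 7 members that entered the fit. Black circles give the edgeR estimate over all libraries and open squares that with the replicate block, each ± its standard error, and grey symbols give the log2 ratio of CPM (counts scaled to library size) in each pair of libraries of the same number. Dotted lines mark the fold threshold at −1 and 1, and Adcy1 is the only member whose fitted estimates lie beyond them, at −1.37, with its 4 pairs between −1.78 and −1.09, while 1 single pair of Adcy5 lies at 1.02.

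Among the isoforms stimulated by calcium with calmodulin, Adcy1 (NCBI Gene 101822607), best known from neurons, stood at 1.13, 1.12, 0.70 and 0.95 TPM in control replicates 1 to 4 and at 0.34, 0.43, 0.33 and 0.43 TPM in cold replicates 1 to 4. Every cold library was below every control library, and control replicate 3 was the lowest of its group. The log2 fold change was −1.37 (standard error 0.20), a level 2.59-fold lower after cold, and 62 of the 12506 genes tested (0.496%) had a lower log2 fold change. It rested on 564 expected counts in the controls (95% exact Poisson interval 518 to 613) and 222 in the cold libraries (194 to 253). These intervals take the pooled counts as Poisson and leave out the spread between libraries. Reads without molecular identifiers are not independent molecules, so even the counting error may be larger. Within pairs the log2 ratio was −1.78, −1.44, −1.09 and −1.09 for replicates 1 to 4. On log2(TPM + 1), a pseudocount about as large as the gene's mean level in controls, the same difference was −0.51.

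Adcy3 (101844476), an isoform known from olfactory neurons and primary cilia, was at 0.26, 0.28, 0.53 and 0.61 TPM in control and 0.36, 0.33, 0.49 and 0.40 TPM in cold replicates 1 to 4. The groups overlapped, with the 2 highest values in control replicates 3 and 4, and cold was higher in pairs 1 and 2 and lower in pairs 3 and 4. Its log2 fold change was −0.10 (standard error 0.29) from 97 counts in the controls and 92 in the cold libraries. Adcy8 (101827170), another isoform of the nervous system, was at 0.09, 0.19, 0.21 and 0.18 TPM in control and 0.12, 0.16, 0.18 and 0.22 TPM in cold replicates 1 to 4. These groups overlapped as well. The 37 control counts (95% exact Poisson interval 26.1 to 51.0) and 38 cold counts (26.9 to 52.2) gave a log2 fold change of 0.0098 (standard error 0.32).

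Adcy1 was highest in control replicates 1 and 2, the libraries in which genes of differentiating muscle were highest. The 17 listed genes of differentiating muscle with values, among them Myog and Acta1, were all lower after cold (median log2 fold change −1.44), and the study displays several of them as lower in these same libraries. Their summed level was 11300, 11500, 5990 and 6450 TPM in control replicates 1 to 4 and 5780, 6740, 3960 and 3790 TPM in cold replicates 1 to 4. Within the cold group the orders were not the same, since cold replicate 4 had the lowest muscle sum and, with cold replicate 2, the highest Adcy1. In every pair of the same number, both the muscle sum and Adcy1 were lower in the cold library. The summed levels of Schwann cell and neuronal markers and of smooth muscle markers, given above, were also lower on average. Of the former, 3 of 3 tested genes were lower (median log2 fold change −0.29). The most abundant, Erbb3, was at 12.2 ± 2.91 TPM in controls and 8.95 ± 2.67 TPM after cold (SD, n = 4 each, edgeR adjusted p = 0.853, or 5.89e-06 with the block). Of the latter, 3 of 7 were lower (median 0.017). Acta2, the most abundant there, was at 1530 ± 401 TPM in controls and 1100 ± 145 TPM after cold (SD, n = 4 each, edgeR adjusted p = 0.676, or 2.68e-05 with the block). The part of these genes in the difference in Adcy1 was not tested.

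**Figure D4:**
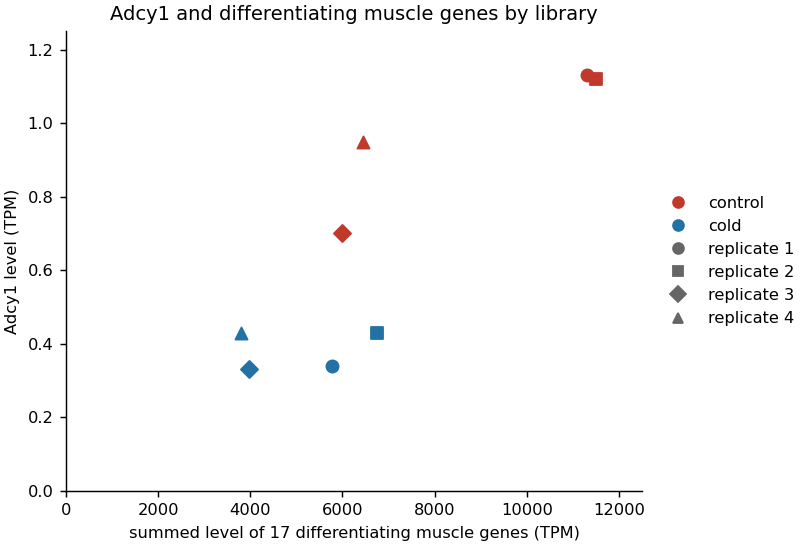
Adcy1 level (vertical axis, TPM) against the summed level of 17 genes of differentiating muscle (horizontal axis, TPM) in the 8 libraries, with both axes from 0. Red symbols are controls, blue symbols are cold libraries, and shapes give the replicate number. Cold libraries lie at 0.33 to 0.43 TPM of Adcy1 and 3790 to 6740 TPM of muscle genes, and controls at 0.70 to 1.13 TPM and 5990 to 11500 TPM.

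The genes whose pattern was most like that of Adcy1 were taken as the 5 with the highest Pearson correlation of log2 CPM over the 8 libraries, among 10487 other genes of at least 1 TPM, genes named only by a LOC number left out. They were Depp1 (r = 0.992), Znf106 (0.989), Hrc (0.988), St6gal2 (0.986) and Myom3 (0.981). Hrc encodes a histidine-rich calcium-binding protein of the sarcoplasmic reticulum, St6gal2 a sialyltransferase and Myom3 a protein of the sarcomeric M band. Their log2 fold changes ranged from −2.29 for Hrc to −0.50 for Znf106, so all 5 were lower in the cold libraries. The 8 libraries share their 2 groups and their replicate numbers, and the correlations describe that shared pattern only.

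Of the isoforms stimulated by G protein βγ subunits, Adcy7 (101839314), an isoform prominent in blood cells, was the abundant member. It was at 6.05, 6.37, 9.03 and 8.88 TPM in control and 6.21, 6.43, 9.13 and 9.92 TPM in cold replicates 1 to 4. The groups overlapped almost completely, and in each group replicates 3 and 4 were above replicates 1 and 2, by 1.44-fold in control and 1.51-fold in cold libraries. The log2 fold change was 0.050 (standard error 0.17), with 2096 counts in the controls and 2213 in the cold libraries. By TPM, Adcy7 was higher after cold in every pair, but on CPM scaled by TMM (edgeR's trimmed mean normalization) pairs 1 and 2 turned to −0.024 and −0.041, so its direction within pairs depended on the scaling.

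Adcy2 and Adcy4 were close to the limit of detection. Adcy2 (101836580), known from brain and skeletal muscle, was at 0.10, 0.18, 0.29 and 0.14 TPM in control and 0.24, 0.21, 0.21 and 0.16 TPM in cold replicates 1 to 4, from 4 to 12 counts per library. The groups overlapped, and the 28 control counts (95% exact Poisson interval 18.6 to 40.5) and 36 cold counts (25.2 to 49.8) had overlapping intervals. Adcy4 (101841504), known from blood vessels among other tissues, had 2 counts in all control libraries together and 4 in all cold libraries. No library held more than 3 counts of it, and 4 of the 8 held none, so no fold is given.

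Of the isoforms inhibited by calcium, Adcy6 (101835563), which with Adcy5 is the main isoform of heart muscle, had the highest level of the family and the steadiest. Its level was 13.17, 11.97, 14.50 and 14.10 TPM in control and 13.18, 13.51, 13.95 and 13.53 TPM in cold replicates 1 to 4. The 4 cold libraries lay within the range of the controls. With 3696 counts in the controls and 3765 in the cold libraries, the log2 fold change was −0.0057 (standard error 0.051). The 5 genes most like Adcy6 over the 8 libraries, chosen as for Adcy1, were Lrrc25 (r = 0.957), Coq10a (0.923), Rhebl1 (0.919), Patl1 (0.896) and Lsm1 (0.873), with log2 fold changes between −0.15 and 0.041. Patl1 and Lsm1 encode factors of mRNA decapping and decay. Adcy6 varied little, and these are the highest of 10486 correlations over 8 libraries. They describe these libraries only, and no link is read from them.

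Adcy5 (101827234), its close relative, was far less abundant than Adcy6 and varied more between replicates than any other member that entered the fit. The values were 0.06, 0.02, 0.31 and 0.19 TPM in control and 0.10, 0.05, 0.29 and 0.16 TPM in cold replicates 1 to 4. Replicates 3 and 4 were above replicates 1 and 2 in both groups, by 6.25-fold in control and 3.00-fold in cold libraries, and the groups overlapped. The log2 fold change was 0.059, with a standard error of 0.68 that fell to 0.30 when the replicate number was a block, and the counts were 45 in control and 48 in cold libraries.

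Adcy9 (101842546), the isoform least responsive to forskolin and widely expressed, was at 4.64, 4.46, 5.69 and 5.16 TPM in control and 4.44, 4.60, 5.78 and 5.44 TPM in cold replicates 1 to 4. Its groups overlapped, replicates 3 and 4 were again above replicates 1 and 2, and by TPM 3 of 4 pairs were higher in the cold. On CPM scaled by TMM the pairs stood at −0.12, −0.0086, 0.017 and 0.12 on the log2 scale, so this count too depended on the scaling. The log2 fold change was 0.0052 (standard error 0.10), from 1792 control and 1839 cold counts. None of the 9 members had counts with decimals in any library, the sign of reads divided between genes.

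The rest of the cAMP pathway was read from 9 lists of 219 genes, written by role, of which 134 entered the edgeR fit. With adjustment over all 12506 genes, 0 of the 134 were called with edgeR at both thresholds, 9 had an unadjusted p under 0.05, as did 6.7% of all genes tested, and DESeq2 called 1, Cav3, where it called 0.473% of genes lower. The median log2 fold change of the 134 was 0.024, close to the 0.0071 of all genes tested, with 60 lower and 74 higher. With the replicate number as a block, an adjusted p under 0.05 was reached by 6 of them that were lower and 3 that were higher, where 4.07% of all genes tested were lower and 1.26% higher. Of these, 2 were lower and 1 was higher past both thresholds (0.808% and 0.04% of all genes tested).

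Receptors and G proteins showed no called gene in either edgeR fit. Of 42 receptors that raise cAMP, 11 were tested, with a median log2 fold change of 0.068. Of 39 receptors that lower cAMP, 14 were tested, with a median of 0.041, and the most abundant was the chemokine receptor gene Cxcr4 at 20.9 ± 3.22 TPM in controls and 22.8 ± 4.41 TPM after cold (SD, n = 4 each). The 20 tested G protein subunits had a median of 0.015 and a range of −0.21 to 0.12. Gnas, which encodes the stimulatory α subunit that activates the cyclases, was at 1020 ± 112 and 993 ± 105 TPM (SD, n = 4 each), a difference within the spread of either group.

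Cyclases outside the family were few. Adcy10, the soluble bicarbonate-stimulated adenylyl cyclase, had 3 counts in the controls together and 4 in the cold libraries together, with at most 2 in any library. Of the guanylyl cyclase genes, 5 were tested, with a median log2 fold change of −0.065 and none called. The highest was Npr2, the receptor for C-type natriuretic peptide, at 7.55 ± 1.21 and 7.31 ± 0.658 TPM (SD, n = 4 each).

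Among 31 tested regulators and anchors of cyclases, the median log2 fold change was 0.052, and 2 genes were lower past both thresholds in the blocked fit, as were 0.808% of all genes tested. Akap6, which encodes a muscle A-kinase anchoring protein that holds PKA at the nuclear envelope, was at 6.64, 6.57, 3.21 and 3.45 TPM in control and 2.92, 3.12, 1.68 and 1.67 TPM in cold replicates 1 to 4. Its groups did not overlap, and edgeR gave −1.11 on the log2 scale (standard error 0.33, adjusted p = 0.427), or −1.10 (standard error 0.067, adjusted p = 1.82e-09) with the replicate block. Cav3, the caveolin of muscle membranes, was at 12.38, 9.03, 3.66 and 3.13 TPM in control and 2.84, 1.47, 0.70 and 1.38 TPM in cold replicates 1 to 4. It too did not overlap, and edgeR gave −2.16 on the log2 scale (standard error 0.55, adjusted p = 0.306), or −2.15 (standard error 0.20, adjusted p = 5.91e-07) with the block. Both genes are expressed in differentiated muscle, and their control levels were higher in replicates 1 and 2, the controls with the highest muscle sums. The part of differentiating muscle genes in their lower levels after cold was not tested. Calm2, a calmodulin gene and the most abundant of the list, was at 790 ± 20.8 and 843 ± 37.6 TPM (SD, n = 4 each; edgeR adjusted p = 0.925).

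The 15 tested effectors of cAMP had a median log2 fold change of −0.069. Of these, 13 were negative, as were 60 of the 134 pathway genes, but several of the 13 were smaller than their standard error. In the blocked fit 3 were lower at an adjusted p under 0.05 (4.07% of all genes tested), none of them by a log2 fold change of 1. Pkia, an inhibitor of PKA, was at 41.28, 42.18, 31.24 and 39.64 TPM in control and 25.22, 29.84, 27.42 and 27.20 TPM in cold replicates 1 to 4, with no overlap (log2 fold change −0.52, edgeR adjusted p = 0.185, or 1.78e-05 with the block). Prkaca, which encodes the catalytic subunit α of PKA, averaged 126 ± 4.81 TPM before and 111 ± 2.58 TPM after cold (SD, n = 4 each), a small difference (log2 fold change −0.18) without overlap (edgeR adjusted p = 0.521, or 0.0123 with the block). Popdc2, a cAMP-binding Popeye domain protein of striated muscle, was at 19.0 ± 1.69 and 16.2 ± 0.654 TPM (SD, n = 4 each; log2 fold change −0.25, edgeR adjusted p = 0.642, or 0.0228 with the block). An inhibitor of PKA and its catalytic subunit thus were lower in the same blocked fit. The most abundant effector, the PKA regulatory subunit gene Prkar1a, had a log2 fold change of −0.064 (edgeR adjusted p = 0.950).

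The 14 tested genes of cAMP breakdown and export had a median log2 fold change of −0.0049. Pde2a, a phosphodiesterase stimulated by cyclic GMP, was at 14.53, 14.02, 8.41 and 9.72 TPM in control and 7.10, 8.57, 6.63 and 7.97 TPM in cold replicates 1 to 4, lower in 4 of 4 pairs with overlapping groups (log2 fold change −0.65, edgeR adjusted p = 0.460, or 0.000364 with the block). Pde4b, a cAMP-specific phosphodiesterase whose transcription CREB can induce, was at 7.90, 7.88, 5.82 and 6.94 TPM in control and 11.57, 10.19, 6.78 and 7.24 TPM in cold replicates 1 to 4. It was higher in 4 of 4 pairs, most in replicates 1 and 2 (log2 fold change 0.31, edgeR adjusted p = 0.926, or 0.0186 with the block), and its log2 fold change was 0.16 without cold replicate 1. Abcc5, an exporter of cyclic nucleotides and the most abundant of the list, had a log2 fold change of −0.023 (edgeR adjusted p = 0.999).

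**Figure D5:**
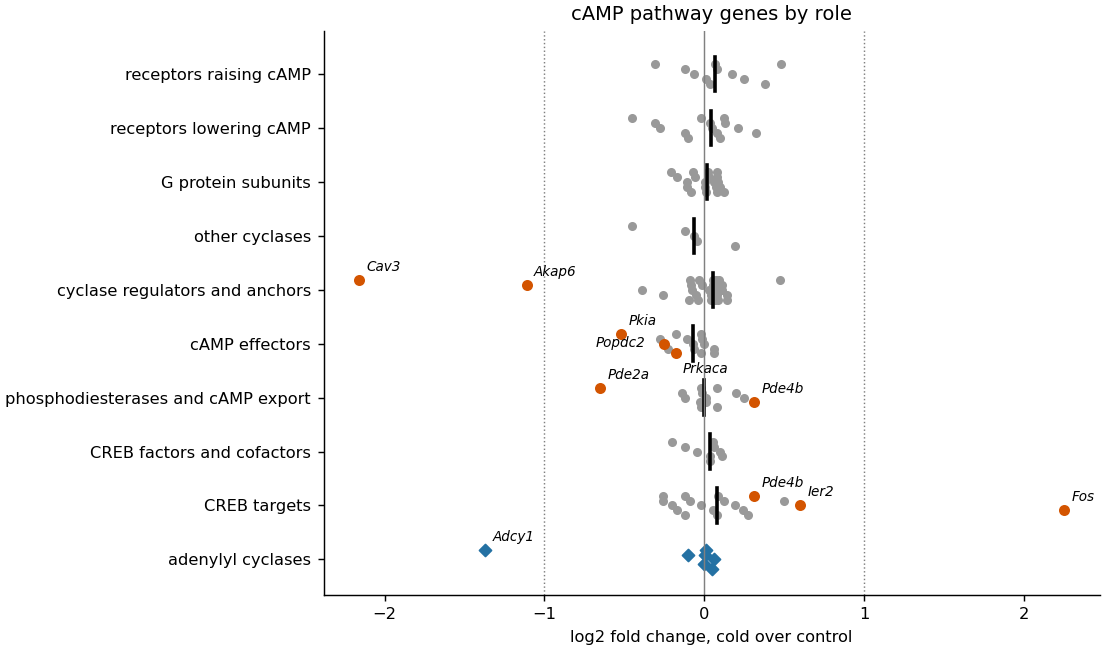
Log2 fold change of cold over control (horizontal axis) for genes of the cAMP pathway, 1 row for each list and a last row for the 7 adenylyl cyclases tested (blue diamonds). Black bars are list medians, orange points have an adjusted p under 0.05 in the edgeR fit with the replicate block, and dotted lines mark −1 and 1. Most points sit near 0, with Cav3 (−2.16), Akap6 (−1.11) and Adcy1 (−1.37) on the lower side and Fos (2.25) on the higher.

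At the nuclear end of the pathway, the 9 tested CREB factors and cofactors had a median log2 fold change of 0.036 and none was called in either edgeR fit. The most abundant, Atf1, had a log2 fold change of 0.11 (edgeR adjusted p = 0.904). Of 19 tested genes known as CREB targets, which other signals also induce, 3 were higher in the blocked fit at an adjusted p under 0.05 (1.26% of all genes tested) and 0 were lower (4.07%), with a median over the list of 0.076. Fos, an immediate early gene, was at 2.13, 2.21, 1.08 and 1.09 TPM in control and 9.22, 18.85, 1.56 and 1.73 TPM in cold replicates 1 to 4. The large values were those of cold replicates 1 and 2, and the log2 fold change of 2.25 (edgeR adjusted p = 0.576, or 1.09e-05 with the block) was 1.32 without cold replicate 2. Ier2, another immediate early gene, was at 6.39, 7.14, 6.89 and 5.82 TPM in control and 10.72, 13.48, 7.90 and 8.09 TPM in cold replicates 1 to 4, with no overlap (log2 fold change 0.60, edgeR adjusted p = 0.445, or 0.000369 with the block), and its log2 fold change was 0.41 without cold replicate 2. The remaining gene of the 3 was Pde4b, given above. Sik1, the most abundant of these targets, had a log2 fold change of −0.089 (edgeR adjusted p = 0.999, or 0.173 with the block).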

How the data were processed

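Polyadenylated RNA was sequenced as paired-end reads of 150 bases; the submitters' processing notes name HISAT and HISAT2, and the counting program, strandedness and genome build are not given in the sources used here. The authors deposited a table with expected counts (not normalized, whole for 96.4% to 96.6% of values), TPM, which the authors scaled within each library, and normalized counts, a signal equal to the deposited count rounded up times a factor per library (0.924 to 1.02), which was read only for this check. Identifiers of all 17590 genes matched RefSeq (names only). No sequences or coordinates are shown, and promoters and proteins were not analysed here.

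Expected counts were rounded and fitted with edgeR 4.0.16 in R 4.3.3 (filterByExpr, TMM, quasi-likelihood F test, no covariate), with standard errors as the absolute log2 fold change over the square root of F. The fold and p thresholds are the study's. The scripts were tested on simulated data. Replicate numbers come from the titles. The paper calls the libraries biological replicates, and whether the numbers mark animals or cultures is not stated. The p-values of the fit without a block measure the spread between these libraries. Those of the blocked fit measure the spread of the cold-against-control differences left after replicate levels are taken out. Deviations of same-numbered libraries correlated at 0.609, 0.618, 0.647 and 0.659, and those of different numbers within replicates 1 and 2 or 3 and 4 at 0.432 to 0.591. Every same-numbered pair was thus above 0.1, so numbers were treated as pairs, and a blocked fit (replicate number as a factor) is given where it changes a call. Different numbers within replicates 1 and 2 or 3 and 4 passed 0.1 too. The rule therefore cannot tell pairing by number from the divide between those replicates. The members, gene lists and tests were chosen with earlier results of these data known. Named genes are the 9 members, the 5 genes most like Adcy1 and most like the member of highest TPM, and in each pathway list the gene of highest TPM and up to 4 genes with an adjusted p under 0.05 in either edgeR fit; 1 gene that this rule names is not reported here. The rule also takes 5 SC and myoblast markers (Pax7, Myf5, Myod1, Myog and Des) and the marker of highest TPM in every other marker list. Adcy10, Acta1, Ptprc, Adgre1, Itgam and Aif1 fall outside it and were chosen after their values were seen. Alternatives were other normalizations and filters, DESeq2 1.42.0, limma 3.58.1 on log2 TPM (genes reaching 0.1 TPM in 4 or more libraries), no fold threshold and leaving out each library.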

Additional observations from a re-analysis of the deposited data

How the results depend on the processing

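The number of genes called lower moved from 5 to 8 with library totals, 68 with DESeq2, 15 without a filter on low counts, 3 when each group had to average 10 counts, 101 with the replicate block (with 5 higher), 2 with limma and a pseudocount of 0.1 TPM, 3 with 1 TPM and 9 with no fold threshold. It ranged from 0 to 33 when single libraries were left out, with 0 to 1 gene higher, and the 33 came without control replicate 3. Adcy1 was past both thresholds, 1 member against 0, with library totals, with DESeq2, without the filter, with the replicate block and without control replicate 3 (0 to 1 over the libraries left out), and no other member was in any of these fits. Its log2 fold change was negative in all 16 alternative fits, from −1.52 to −0.51, and the value nearest 0 came from the pseudocount of 1 TPM. The other 6 members lay between −0.46 and 0.69, both extremes being Adcy5, and Adcy6 between −0.048 and 0.015. Of the pathway genes, DESeq2 called 1 lower and the replicate block 2 lower and 1 higher, against 0. The causes of these moves were not tested. The planned order of levels by coding length was not run, since no coding lengths were used here. Adcy2, Adcy4, Adcy5 and Adcy8 had at most 48 counts in a group, and small changes in them could be missed. How small a change could be detected was not tested. For Adcy5 the spread between replicates counted too, since its standard error was 0.68 without and 0.30 with the replicate block.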
